A study of Mus musculus with 12 samples.

Results

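The comparison of double-mutant mice, *Asxl1*Y588XTg *Kdm6b*Δ/+ (DM below), with wild-type (WT) mice asks what still differs from normal after 1 copy of *Kdm6b* has been removed from cells that express a truncated ASXL1. Its members are the 6 libraries that the sample labels give as DM replicates 1 to 3 and WT replicates 1 to 3, of 12 libraries in all, and it is described across 15254 autosomal genes. RNA was sequenced from Lin-cKit+ (LK) bone marrow cells of C57BL/6 mice at 12 months of age, 1 mouse per library, and the other 6 libraries are from *Kdm6b*Δ/+ mice and *Asxl1*Y588XTg mice, 3 of each. *Asxl1*Y588XTg mice carry a transgene for ASXL1 cut short at Y588, beside their own intact *Asxl1* alleles. *Kdm6b*Δ/+ and DM mice also carry *Mx1Cre* and received pI:pC, a double-stranded RNA that induces interferon and through it the Cre recombinase, which deletes 1 floxed *Kdm6b* allele. Whether the WT and *Asxl1*Y588XTg mice of this experiment carried *Mx1Cre* or received pI:pC is not stated in the sources used here. The deletion, Cre, pI:pC, and anything else inherited with the floxed allele or *Mx1Cre* therefore cannot be told apart. The sources used here also do not give the promoter of the transgene, and the deletion is not restricted to LK cells, since *Mx1Cre* is active in many interferon-responsive tissues.

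Trimethylation of lysine 27 on histone H3 (H3K27me3) is laid down by the Polycomb repressive complex PRC2 and marks silent genes. KDM6B is a demethylase that removes it, and ASXL1 is a chromatin regulator that is often truncated in myeloid neoplasms. LK cells are bone marrow cells that carry cKit, the receptor for stem cell factor, but none of the lineage antigens used to mark mature cells. They include hematopoietic stem cells and the myeloid, erythroid, and megakaryocytic progenitors that derive from them, and a bead-purified fraction can hold some mature cells.

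Between 16310456 and 19208274 reads per WT library and between 17080728 and 23482563 per DM library were counted on genes. The defining LK genes *Kit*, *Cd34*, *Myb*, *Gata2*, *Mpo*, *Cdk6*, *Spi1*, and *Cebpa* were at 0 in no library, and the sum of their normalized counts ranged from 206151 to 233378 in WT and from 198333 to 223059 in DM, with 0 of the 8 called by edgeR or DESeq2. At an unadjusted p under 0.05, 3 of the 8 were lower (37.5%, against 2.99% of all autosomal genes) and 0 were higher, with a median log2 fold change of −0.14. WT replicate 1 stood apart, with Pearson correlations of log2 counts scaled to library size of 0.953 to 0.963 with the other 5 libraries, against 0.975 to 0.988 among those 5. Its summed immediate-early genes, which respond within minutes to cell handling, were the highest of the 6 libraries at 75481, against 40493 to 62574 in the others. Values without it are given beside the genes whose call changed and the list medians that moved most. Y-linked transcripts were present in 3 of 3 DM libraries and 0 of 3 WT libraries. *Ddx3y* ranged from 1001 to 1152 normalized counts in DM and from 0 to 2.14 in WT, and *Xist* from 15 to 26.8 in DM and from 13298 to 16044 in WT. Genotype and sex-linked differences therefore cannot be told apart in these 6 libraries. Of the other genotypes, 2 of 3 *Kdm6b*Δ/+ and 1 of 3 *Asxl1*Y588XTg libraries held Y-linked transcripts, which allowed a fit of all 12 libraries with a term for them. Annotated genes known to collect ribosomal RNA reads, a list chosen after the data were seen, also moved with the genotype, with a sum of 85472 to 144006 in WT and 215486 to 394625 in DM, and the part of these differences in the results below was not tested.

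The targeted gene was examined first. *Kdm6b* (chromosome 11 of mm10 from 69398508 to 69413675) had 2142, 2372, and 1869 normalized counts in WT and 1649, 1873, and 1909 in DM. DM replicate 1 lay below every WT library, whereas the other DM libraries lay just above the lowest WT library. The log2 fold change in DM against WT was −0.22 (SE 0.10, adjusted p = 0.737). All adjusted p-values come from the quasi-likelihood test of edgeR, adjusted by the Benjamini-Hochberg method over the 15825 genes tested. A gene was called where the adjusted p was under 0.05 and the fold exceeded 1.5. *Kdm6b* reads from 1 intact allele and from the undeleted part of the other are counted alike, so the count is not a full check of the deletion. Counts on *Asxl1* were 2545, 3081, and 2762 normalized counts in WT and 3025, 3068, and 3244 in DM, with overlapping groups and a log2 fold change of 0.17 (SE 0.09). Reads of the transgene and the endogenous gene are not separated by these counts.

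The number of autosomal genes past the threshold in DM against WT depended on the method. By edgeR 18 genes were higher and 8 were lower in DM cells, which is 0.118% and 0.0524% of the 15254 autosomal genes tested and 0.17% together. DESeq2 on the same libraries gave 67 higher and 35 lower genes, the 26 genes among them, and edgeR without a filter on low counts gave 124 and 45. At an unadjusted p under 0.05 there were 566 higher genes (3.71%) and 456 lower genes (2.99%). With the same test and threshold, *Asxl1*Y588XTg against WT gave 240 higher (1.57%) and 5 lower (0.0328%) autosomal genes, and *Kdm6b*Δ/+ against WT gave 11 (0.0721%) and 3 (0.0197%). These 3 comparisons share the WT libraries. The difference between the transgenic genotypes themselves, DM against *Asxl1*Y588XTg, comprised 23 higher (0.151%) and 243 lower (1.59%) genes. The 26 genes that differed from WT comprised 10 immunoglobulin-related genes, 2 globin genes, 1 platelet chemokine, 3 higher genes on chromosome 11, which carries *Kdm6b*, and others of unrelated function, and for each of them the 3 DM libraries did not overlap the 3 WT libraries. Among all autosomal genes, 6.65% lay entirely higher and 6.77% entirely lower in DM, 13.4% in all. Fewer cells of a type and less RNA per cell cannot be told apart in these bulk libraries. With WT replicate 1 left out, 19 genes were higher and 12 lower, and 21 of the 26 genes were called again, whereas without WT replicate 3 there were 5 higher and 3 lower, and without DM replicate 1, 2, or 3 there were 8, 14, or 11 higher and 7, 6, or 3 lower. Without WT replicate 2 there were 26 and 16. Losses of a call in these leave-outs are therefore given with the gene. Over all 12 libraries 9 of the 26 genes were called again by edgeR (*Chek2*, *Eif5al3-ps*, *Fam71b*, *Gm18860*, *Gm5823*, *Igkv1-135*, *Nlrp1b*, *Rps4l*, and *Ugt8a*). In the fit with the term for Y-linked transcripts 3 genes were higher and 0 were lower by edgeR, with 386 higher and 314 lower at an unadjusted p under 0.05. Those 3, *Nlrp1b*, *Eif5al3-ps*, and *Gm18860*, were of the 26, and the genes named below that lost their call with that term had edgeR adjusted p-values from 0.269 (*Fam71b*) to 0.99 (*Hbb-bt*).

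**Figure D1:**
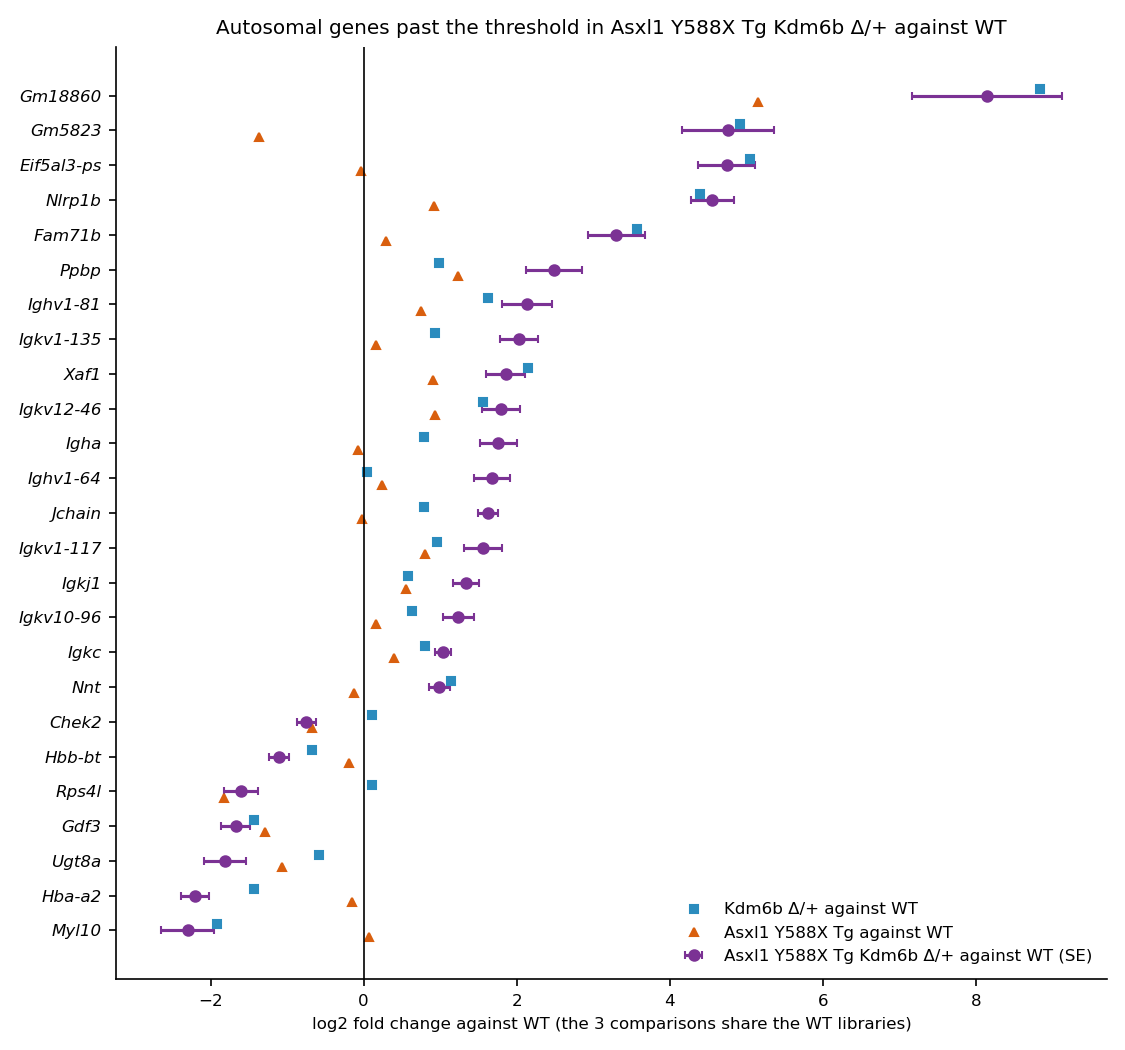
Log2 fold change against WT (horizontal axis) of 25 of the 26 autosomal genes called in *Asxl1*Y588XTg *Kdm6b*Δ/+ (circles, with standard error), with the values of the same genes in *Kdm6b*Δ/+ (squares) and *Asxl1*Y588XTg (triangles); 3 libraries per genotype, and all comparisons use the same WT libraries. *Nlrp1b*, *Fam71b*, and *Eif5al3-ps* lie close to their *Kdm6b*Δ/+ values, *Chek2* and *Rps4l* close to their *Asxl1*Y588XTg values.

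A first group of genes differed in the same way in both genotypes with the *Kdm6b* deletion. *Nlrp1b*, a sensor of bacterial proteases that assembles an inflammasome (chromosome 11 from 71153102 to 71230733), had 5.49, 8.74, and 8.56 normalized counts in WT and 161, 188, and 185 in DM. It had 118, 175, and 188 in the *Kdm6b*Δ/+ libraries and 26.2, 7.04, and 10.1 in the *Asxl1*Y588XTg libraries. Each of the 6 libraries with the deletion lay far above each of the 6 without it. The log2 fold change in DM against WT was 4.55 (SE 0.28, edgeR adjusted p = 3.44e-05), and DM exceeded *Asxl1*Y588XTg, with which it shares the transgene, by 3.62 (SE 0.38, edgeR adjusted p = 0.00409). It stayed called with each library left out and with the term for Y-linked transcripts. Its neighbor *Nlrp1a*, a paralog with which it could exchange short reads, had 245, 199.9, and 176 normalized counts in WT and 99.6, 99.0, and 94.9 in DM. These groups did not overlap and the DM libraries were the lower ones, but the log2 fold change of −1.07 (SE 0.18) was not past the threshold (edgeR adjusted p = 0.0631). *Nlrp1a* passed it with edgeR over all 12 libraries (adjusted p = 0.0213) and with DESeq2 (adjusted p = 0.000885).

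*Xaf1*, an interferon-induced gene that promotes apoptosis (chromosome 11 from 72301629 to 72313733), had 40.3, 27.3, and 37.4 normalized counts in WT and 113, 121, and 145 in DM. DM and WT did not overlap, and the log2 fold change was 1.86 (SE 0.26, edgeR adjusted p = 0.0183). *Asxl1*Y588XTg libraries ranged widely, from 32.4 to 103, and the difference of DM from them did not pass the threshold (log2 fold change 0.95, edgeR adjusted p = 0.255). The call in DM against WT was lost without any 1 of the DM libraries or WT replicate 3 (edgeR adjusted p from 0.0146 to 0.141 over the leave-outs). *Nlrp1b* and *Xaf1* lie 1.79 and 2.90 Mb from *Kdm6b*. Of 141 autosomal genes tested within 5 Mb of *Kdm6b*, these 2 were called (1.42%), against 0.159% of the other 15113 autosomal genes. At an unadjusted p under 0.05 the shares were 8.51% and 6.68%. Called genes inside and outside this window numbered 2 and 12 in *Kdm6b*Δ/+ against WT and 7 and 259 in DM against *Asxl1*Y588XTg. In *Asxl1*Y588XTg against WT, without the deletion, they numbered 5 and 240. *Fam71b*, known from the testis, lies 23 Mb from *Kdm6b* on its other side and had 6.40, 7.65, and 6.42 normalized counts in WT and 56.1, 79.0, and 68.1 in DM. Its *Kdm6b*Δ/+ libraries had 79.2, 85.3, and 82.0 and its *Asxl1*Y588XTg libraries 11.1, 11.1, and 3.04. *Fam71b* differed by 3.30 on the log2 scale (SE 0.37, edgeR adjusted p = 0.00478) against WT and 3.01 (SE 0.40, edgeR adjusted p = 0.00672) against *Asxl1*Y588XTg, and the call against WT was lost without WT replicate 3 (edgeR adjusted p = 0.0511). *Pttg1*, which encodes securin, the inhibitor of sister chromatid separation, lies 26.0 Mb from *Kdm6b* on that side. It had 65.0, 149, and 158 normalized counts in WT and 361, 380.0, and 385 in DM and did not pass the threshold against WT (log2 fold change 1.62, SE 0.27, edgeR adjusted p = 0.0611). It passed without WT replicate 1 (log2 fold change 1.30, edgeR adjusted p = 0.00438), without WT replicate 2 (edgeR adjusted p = 0.0489), and with edgeR over all 12 libraries (adjusted p = 0.0244). Against *Asxl1*Y588XTg it passed with all 6 libraries (log2 fold change 1.27, SE 0.11, edgeR adjusted p = 0.000887).

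**Figure D2:**
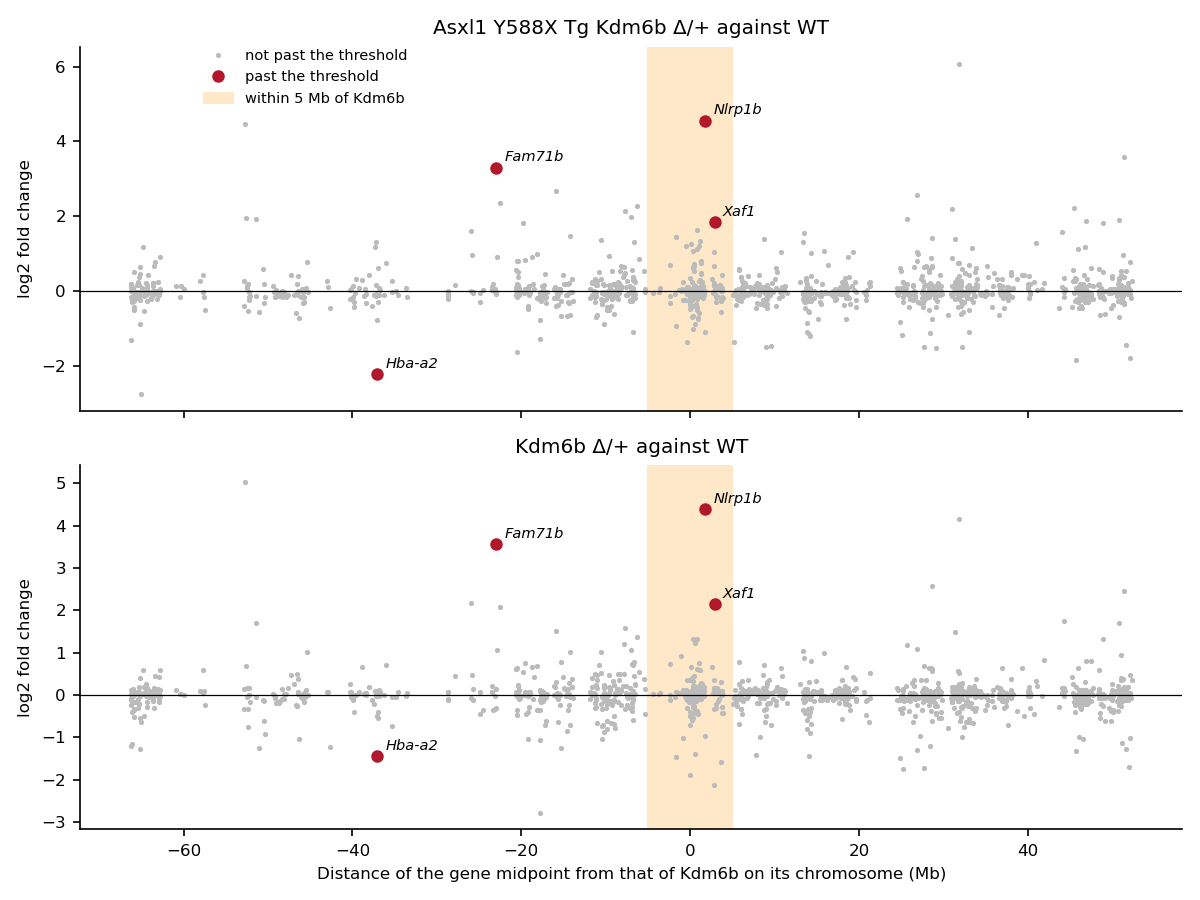
Log2 fold change of the autosomal genes tested on chromosome 11 (vertical axis) by distance in Mb from *Kdm6b* (horizontal axis), in *Asxl1*Y588XTg *Kdm6b*Δ/+ against WT (upper panel) and *Kdm6b*Δ/+ against WT (lower panel); red points were called, and the band marks 5 Mb on either side. *Nlrp1b* (4.55) and *Xaf1* (1.86) lie inside the band and *Fam71b* (3.30) and *Hba-a2* (−2.20) outside it, and the panels share the WT libraries.

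Genes of this pattern also lay on other chromosomes. The processed pseudogene *Eif5al3-ps* (chromosome 5 from 90132229 to 90132675), a copy of a translation factor gene, had 2.74, 5.46, and 3.21 normalized counts in WT and 103, 103, and 103 in DM, and *Gm5823*, a predicted gene on chromosome 18, had 0.910, 1.09, and 11.8 normalized counts in WT and 119.5, 131, and 118 in DM. Both were between 0 and 11.8 in the 6 libraries without the deletion and between 103 and 143 in the 6 with it. *Gm18860*, a processed pseudogene on chromosome 8, had no count in the 3 WT libraries and 41.3, 26.0, and 33.0 normalized counts in DM, which is at least 10.9-fold higher when the WT group is set to 3 counts per library. Reads of such copies can come from their parent genes, so the source of these counts is uncertain. *Eif5al3-ps* had a log2 fold change of 4.74 (SE 0.37, edgeR adjusted p = 0.000289), and it stayed called with each library left out. *Gm5823* (log2 fold change 4.75, SE 0.60, edgeR adjusted p = 0.0106) lost its call with any of the DM libraries left out, and *Gm18860* (edgeR adjusted p = 0.0199) lost its call likewise and also without WT replicate 3. Over the leave-outs their edgeR adjusted p ranged from 0.000714 to 0.0577 and from 0.0113 to 0.158.

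*Nnt* on chromosome 13 encodes the mitochondrial transhydrogenase that makes NADPH, and part of the gene is missing in the C57BL/6J substrain. It had 1308, 1307, and 1298 normalized counts in WT and 2891, 1959.8, and 2848 in DM. The WT values were tightly grouped, DM replicate 2 was the lowest of the DM libraries, and the groups did not overlap. *Kdm6b*Δ/+ libraries had 3070.0, 2167, and 3359.6 and *Asxl1*Y588XTg libraries 1139, 1193, and 1249.9, so that the 6 libraries with the deletion lay above the 6 without it. On the log2 scale *Nnt* differed by 0.99 (SE 0.14, edgeR adjusted p = 0.0183) against WT and 1.12 (SE 0.15, edgeR adjusted p = 0.0209) against *Asxl1*Y588XTg. The labels give the strain of all mice as C57BL/6 without naming a substrain. *Nnt* lost its call without DM replicate 1 or 3 or WT replicate 1 or 3 (edgeR adjusted p from 0.000729 to 0.159 over the 6 leave-outs).

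Genes called in *Kdm6b*Δ/+ against WT could be read in libraries that did not choose them. That comparison and DM against *Asxl1*Y588XTg share no library. Of the 11 autosomal genes higher in *Kdm6b*Δ/+ than WT, 10 had a higher fitted value in DM than *Asxl1*Y588XTg and 6 passed the threshold in that direction, against 0.151% of all autosomal genes. Those 6 were *Nlrp1b*, *Fam71b*, *Eif5al3-ps*, *Gm5823*, *Gm18860*, and *Nnt*. On the log2 scale the median of the 11 was 1.65, with a median of 0.00 over all autosomal genes. The 3 genes lower in *Kdm6b*Δ/+ than WT, *Hba-a2* among them, all had lower fitted values in DM than *Asxl1*Y588XTg, none past the threshold by edgeR.

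**Figure D3:**
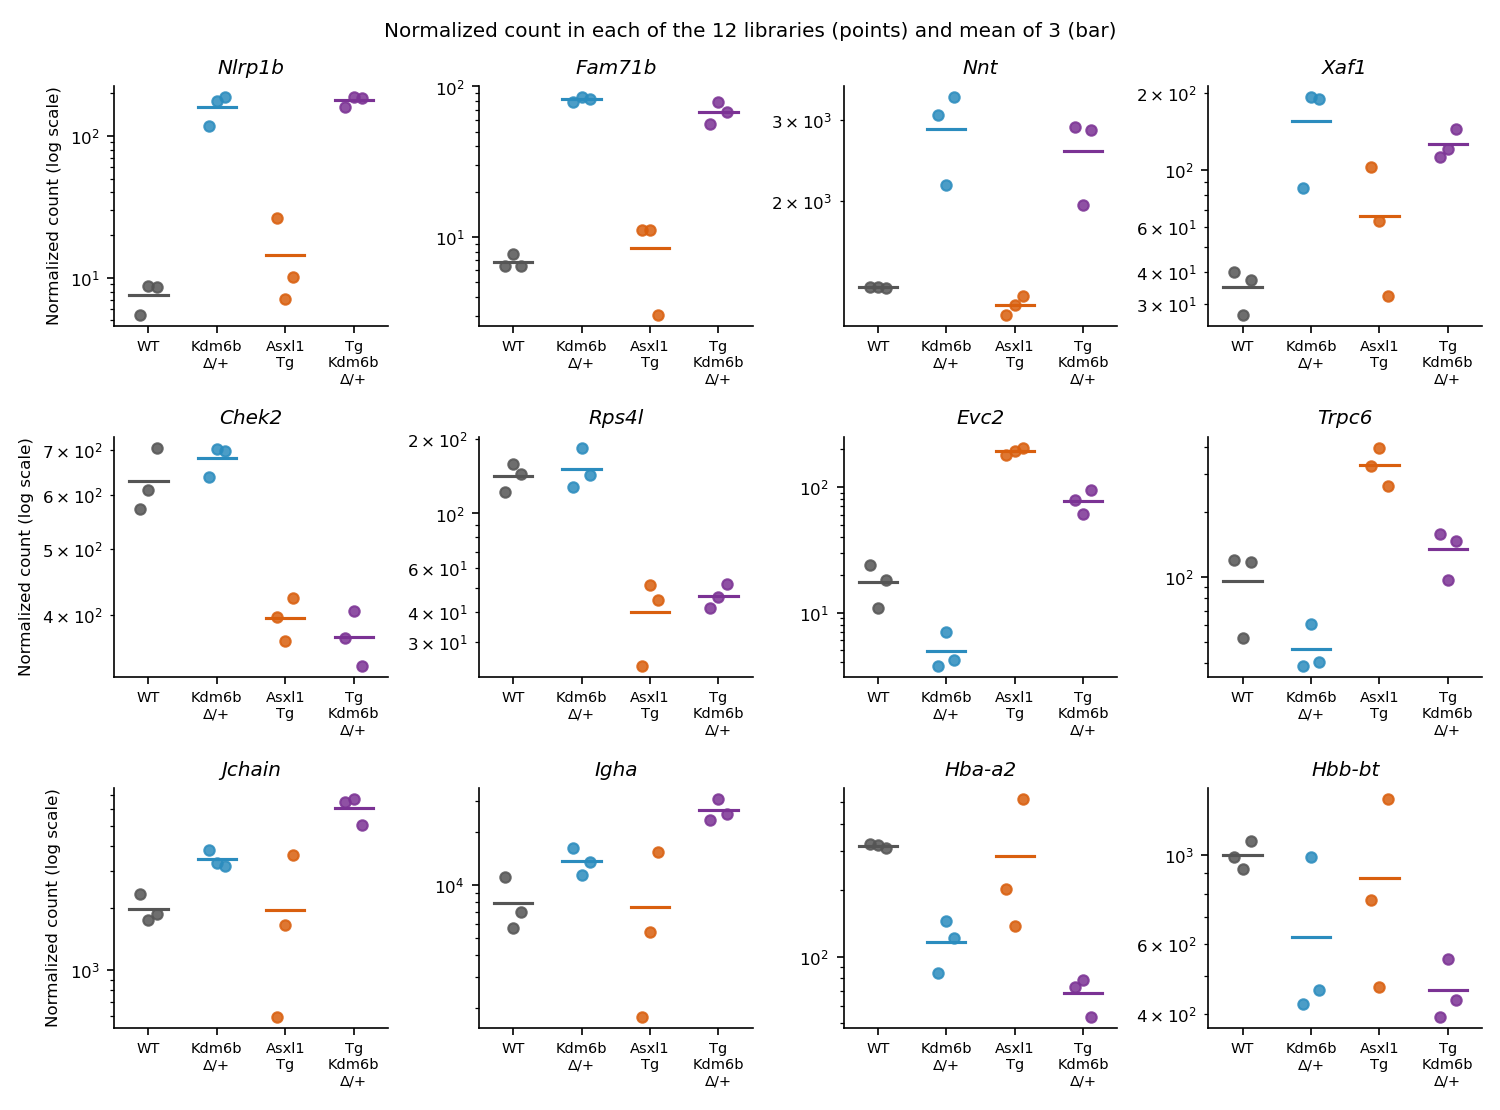
Normalized count (vertical axis, log scale, different range in each panel) of 12 genes in each of the 12 libraries by genotype; points are single libraries and bars are means of 3. *Nlrp1b*, *Fam71b*, and *Nnt* separate by the *Kdm6b* deletion, *Xaf1* does so except for 1 *Asxl1*Y588XTg library, *Chek2* and *Rps4l* separate by the transgene, and *Evc2* and *Trpc6* are highest in *Asxl1*Y588XTg.

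A second group was low in both transgenic genotypes. *Chek2*, the checkpoint kinase that relays DNA double-strand breaks to p53 (chromosome 5 from 110839979 to 110874145), had 573, 609.6, and 704 normalized counts in WT and 369.6, 405, and 336 in DM. *Asxl1*Y588XTg libraries had 396, 365, and 423, and *Kdm6b*Δ/+ libraries had 638, 702, and 697. Each of the 6 transgenic libraries lay below each of the 6 nontransgenic ones. In DM against WT the log2 fold change was −0.75 (SE 0.12, edgeR adjusted p = 0.048). *Chek2* was the 1 gene called of 20 p53 and DNA damage response genes, where 0.0524% of all autosomal genes were called lower. The list as a whole was not lower, with a median log2 fold change of 0.02 and 14 of 20 fitted values above 0. At an unadjusted p under 0.05, 2 of the 20 were lower and 0 higher, against 2.99% and 3.71% of all autosomal genes. In libraries that share no mouse with each other, *Chek2* was lower in *Asxl1*Y588XTg than WT, with a log2 fold change of −0.67 (SE 0.12, edgeR adjusted p = 0.0249) and in DM than *Kdm6b*Δ/+, with −0.87 (SE 0.10, edgeR adjusted p = 0.00495). DM and *Asxl1*Y588XTg differed by −0.08 (SE 0.11), less than the spread between libraries.

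*Rps4l*, a processed copy of a ribosomal protein gene (chromosome 6 from 148354656 to 148355598, antisense to *Tmtc1*), followed the same order. It had 122, 158, and 144 normalized counts in WT and 41.3, 46.0, and 51.6 in DM, with 24.1, 51.3, and 44.6 in *Asxl1*Y588XTg and 128, 184, and 143 in *Kdm6b*Δ/+. Again no transgenic library reached the lowest nontransgenic one. The log2 fold change was −1.60 (SE 0.23, edgeR adjusted p = 0.0202) in DM against WT, −1.82 (edgeR adjusted p = 0.0174) in *Asxl1*Y588XTg against WT, and −1.72 (edgeR adjusted p = 0.00626) in DM against *Kdm6b*Δ/+. *Chek2* and *Rps4l* were the 2 genes past the threshold among the 5 autosomal genes lower in *Asxl1*Y588XTg than WT when these were read in DM against *Kdm6b*Δ/+, where 0.0393% of all autosomal genes were called lower. Both lost the call in DM against WT without any 1 of the DM libraries or WT replicate 3, with edgeR adjusted p-values over the leave-outs from 0.0327 to 0.27 for *Chek2* and from 0.0121 to 0.136 for *Rps4l*.

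*Ugt8a*, the galactosyltransferase of myelin lipid synthesis (chromosome 3 from 125865271 to 125938619), had 183, 321, and 209 normalized counts in WT and 87.8, 55.0, and 56.7 in DM and a log2 fold change of −1.81 (SE 0.27, edgeR adjusted p = 0.0272). The other genotypes overlapped one or the other group, with 80.5, 131, and 129.7 in *Asxl1*Y588XTg and 163, 185, and 126 in *Kdm6b*Δ/+. Every DM library lay below every WT library. *Ugt8a* lost its call without DM replicate 2 or 3 or WT replicate 3 (edgeR adjusted p from 0.0121 to 0.163 over the leave-outs). *Gdf3*, a TGF-β family ligand (chromosome 6 from 122605403 to 122610087), had 493, 469, and 506 normalized counts in WT and 202, 119, and 133 in DM. It was lower than WT in every library of the other 3 genotypes, with 132, 185, and 282 in *Asxl1*Y588XTg and 64.1, 269.7, and 202 in *Kdm6b*Δ/+. In DM against WT its log2 fold change was −1.67 (SE 0.19, edgeR adjusted p = 0.00478), lost in 1 of the 6 leave-outs, without WT replicate 3 (edgeR adjusted p = 0.0688). *Thbs1*, a matrix protein that activates latent TGF-β (chromosome 2 from 118111876 to 118127133), had 2368, 3050.0, and 2116 normalized counts in WT and 835, 470.0, and 1241 in DM. The groups did not overlap and DM was the lower, but DM varied more and the log2 fold change of −1.55 (SE 0.35) did not pass the threshold (edgeR adjusted p = 0.386). By DESeq2 on the same libraries *Thbs1* passed it (adjusted p = 0.027). It was also below WT in the other genotypes, with 746, 755, and 579 in *Asxl1*Y588XTg and 726, 881, and 386 in *Kdm6b*Δ/+. It therefore did not follow the transgene alone.

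Genes higher in *Asxl1*Y588XTg cells were next examined for what remained of that difference in DM. To avoid a shared control, they were taken from *Asxl1*Y588XTg against *Kdm6b*Δ/+, which uses none of the DM and WT libraries and in which 21 genes (0.138%) were lower. These genotypes differ in both the transgene and the deletion, so the set can also hold genes that are lower with the deletion. *Kdm6b* itself was called there, with a log2 fold change of 0.60 (edgeR adjusted p = 0.0012), but was at 0.08 in *Asxl1*Y588XTg against WT. The values below are therefore not a measure of the transgene alone. The 613 autosomal genes higher there were 4.02% of those tested, with a median log2 fold change of 1.81. Of these 613, 0 passed the threshold in DM against WT by edgeR, where 0.118% of all autosomal genes were called higher. DESeq2 called 12 of the 613 higher and 2 lower, and 67 and 35 of all 15254 autosomal genes. The values nonetheless lay on the higher side. For the 613 genes the median in DM against WT was 0.39 on the log2 scale (quartiles 0.08 and 0.95), against 0.00 over all autosomal genes. A higher fitted value was found for 491 of them (80.1%, against 50.0% of all), and 118 had an unadjusted p under 0.05 in that direction (19.2%, against 3.71%). Many of these genes had low counts. For the 193 whose normalized counts averaged at least 100 over the 6 libraries, the median was 0.16 and 72.5% were higher, against −0.01 and 45.3% for all autosomal genes of that abundance. For the other 420, the median was 0.60, against 0.10. The median was 0.37 without WT replicate 1 and 0.39 with the term for Y-linked transcripts, and it ranged from 0.24 (without DM replicate 3) to 0.51 (without DM replicate 2) over the leave-outs.

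**Figure D4:**
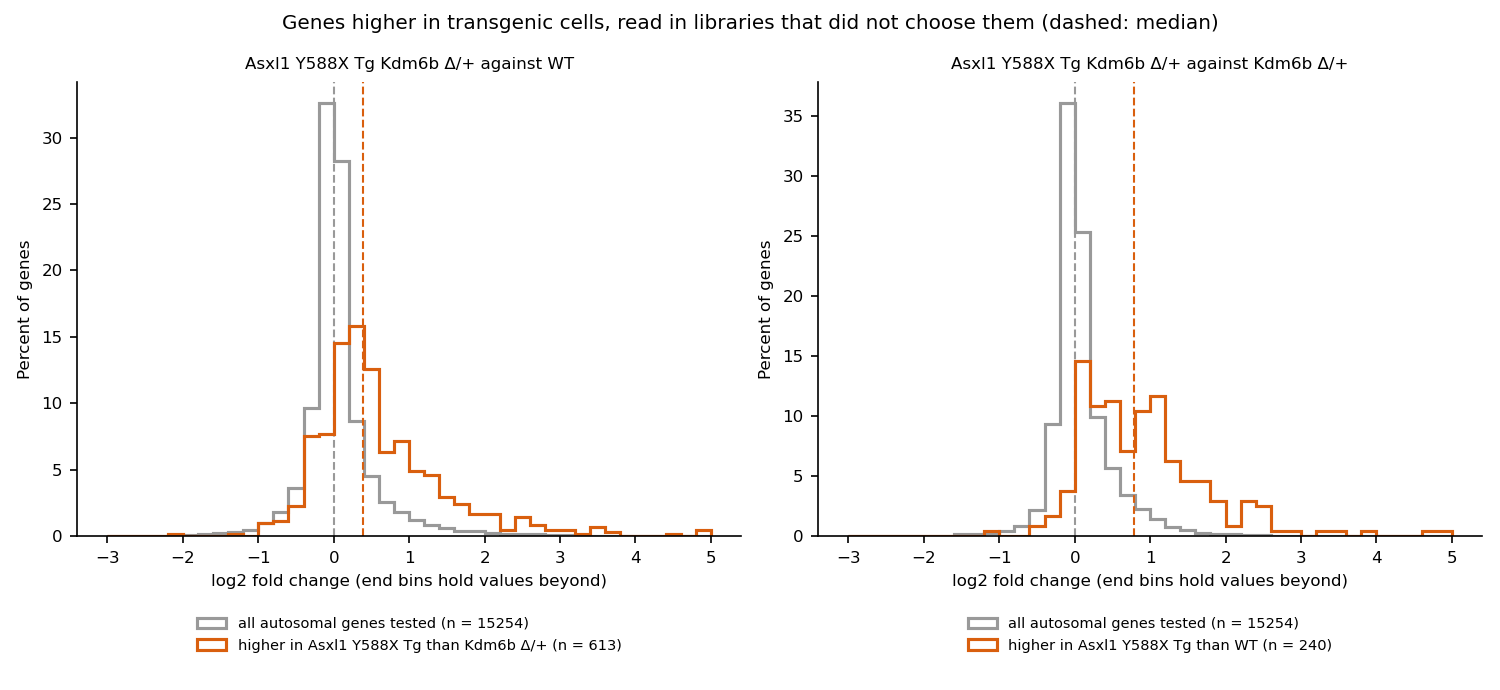
Distribution of log2 fold changes (horizontal axis; vertical axis, percent of genes) of genes higher in *Asxl1*Y588XTg (orange) and of all 15254 autosomal genes (gray), each set read in a comparison that shares no library with the one that chose it; dashed lines are medians. The 613 genes higher than in *Kdm6b*Δ/+ have a median of 0.39 in *Asxl1*Y588XTg *Kdm6b*Δ/+ against WT (left), and the 240 genes higher than in WT a median of 0.79 in *Asxl1*Y588XTg *Kdm6b*Δ/+ against *Kdm6b*Δ/+ (right).

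The other such reading gave 240 autosomal genes higher in *Asxl1*Y588XTg than WT, read in DM against *Kdm6b*Δ/+. Their median log2 fold change there was 0.79, against 0.00 over all autosomal genes, 224 (93.3%, against 50.4% of all) had a higher fitted value, and 4 were called, where 0.059% of all autosomal genes were. The 4 were *Evc*, *Evc2*, *Clec1a*, and *Trpc6*, named after their values were seen. *Evc* and *Evc2* are neighbors on chromosome 5 (from 37289098 to 37336894 and from 37338499 to 37425055) whose products form a complex at the base of the primary cilium that transmits hedgehog signals. *Evc2* had 23.8, 10.9, and 18.2 normalized counts in WT and 78.9, 61.0, and 93.9 in DM, with 3.77, 6.94, and 4.15 in *Kdm6b*Δ/+ and 178, 194, and 205 in *Asxl1*Y588XTg. No group overlapped another, and DM lay between the nontransgenic and the *Asxl1*Y588XTg libraries. *Evc2* had a log2 fold change of 3.92 (SE 0.37, edgeR adjusted p = 0.00134) in DM against *Kdm6b*Δ/+, and 2.14 (SE 0.37, edgeR adjusted p = 0.0631), not past the threshold, in DM against WT. Without WT replicate 1 the latter was 2.42 and passed (edgeR adjusted p = 0.0327), as it did with edgeR over all 12 libraries (adjusted p = 0.00627). *Evc* had 0, 15.3, and 19.3 normalized counts in WT and 73.8, 78.0, and 93.9 in DM, and its log2 fold change in DM against *Kdm6b*Δ/+ was 3.29 (SE 0.33, edgeR adjusted p = 0.00174). It had 0 counts in WT replicate 1, and the value against WT was 2.86 (SE 0.72, edgeR adjusted p = 0.338). With that library left out it was 2.25 and passed the threshold (edgeR adjusted p = 0.0189). *Clec1a*, a C-type lectin of endothelial and stem cells (chromosome 6 from 129424772 to 129452000), and *Trpc6*, a cation channel (chromosome 9 from 8544142 to 8680741), overlapped between DM and WT. *Clec1a* had 75, 49.2, and 32.1 normalized counts in WT and 99.6, 70.0, and 88.7 in DM and *Trpc6* had 119.9, 52.4, and 118 normalized counts in WT and 159, 97.0, and 148 in DM, with log2 fold changes of 0.73 (SE 0.33) and 0.49 (SE 0.32). Whether the effect of the transgene differed with the *Kdm6b* deletion was tested as an interaction over all 12 libraries. It had an adjusted p under 0.05 by edgeR for 0.0131% of the autosomal genes and for 0 of the 85 genes named by the rule used here (lowest edgeR adjusted p 0.14, and 20 with an unadjusted p under 0.05).

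Among the genes higher in *Asxl1*Y588XTg than WT that averaged at least 100 normalized counts, the 8 with the largest values in DM against WT and no overlap are given with their levels. None of them passed the threshold in DM against WT by edgeR, 5 of them did so by DESeq2 (*Clu*, *Col16a1*, *Dip2c*, *Med12l*, and *Mmrn1*), and the comparisons share the WT libraries. *Col16a1*, a fibril-associated collagen, had 40.3, 81.9, and 81.3 normalized counts in WT and 189.6, 120.0, and 202 in DM, against 734, 604, and 449 in *Asxl1*Y588XTg (log2 fold change in DM against WT 1.35, SE 0.31). *Clu*, which encodes the secreted chaperone clusterin, had 81.4, 69.9, and 128 normalized counts in WT and 201, 172, and 308 in DM, against 563, 758, and 497 in *Asxl1*Y588XTg (log2 fold change 1.30, SE 0.28). For both genes every DM library lay between the highest WT library and the lowest *Asxl1*Y588XTg library. *Ehd3*, an endosomal recycling ATPase, had 78.7, 101, and 160.5 normalized counts in WT and 232, 182, and 241 in DM (log2 fold change 0.96, SE 0.26), and *Mmrn1*, a platelet and endothelial matrix protein, had 403, 327, and 507 normalized counts in WT and 808, 510.0, and 765 in DM (log2 fold change 0.77, SE 0.20). *Dip2c* differed from these in that DM, with 234, 226, and 202, lay close to *Asxl1*Y588XTg, with 267, 256, and 297, and above WT, with 117, 118, and 136 (log2 fold change 0.85, SE 0.16, edgeR adjusted p = 0.119). *Med12l* (0.94), *Pard3b* (0.85), and *Dst* (0.80) completed the 8 by log2 fold change. *Med12l*, *Pard3b*, *Dip2c*, and *Dst* each overlap several annotated genes, some on the opposite strand, and whether counting used the strand is not stated.

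None of the stem cell regulators that the study followed passed the threshold in DM against WT by edgeR or DESeq2. *Meis1*, a homeobox partner of HOX proteins in stem cells and leukemia (chromosome 11 from 18879817 to 19018985), had 383, 404, and 527 normalized counts in WT and 459.6, 441, and 583 in DM, with overlapping groups and a log2 fold change of 0.19 (SE 0.16, edgeR adjusted p = 0.853). In DM against *Asxl1*Y588XTg, with 1051, 1125, and 968, the difference was −1.07 (SE 0.11, edgeR adjusted p = 0.00265). *Gata2*, a zinc finger factor of stem and mast cells (chromosome 6 from 88193891 to 88207032), had 1056, 736, and 1069 normalized counts in WT and 821, 616, and 869.6 in DM. The groups overlapped and its log2 fold change was −0.30 (SE 0.17, edgeR adjusted p = 0.795). *Prdm16*, a histone methyltransferase family member needed for stem cell maintenance, had 97.9, 42.6, and 114 normalized counts in WT and 119.5, 114, and 134 in DM, with WT replicate 3 at the level of the lowest DM library and a log2 fold change of 0.54 (SE 0.32, edgeR adjusted p = 0.803). *Hoxb5*, a homeobox gene of long-term stem cells, had 0, 1.09, and 3.21 normalized counts in WT and 8.85, 4.0, and 13.4 in DM. At such low counts the log2 fold change of 2.57 (SE 1.05) had a large error and did not pass the threshold (edgeR adjusted p = 0.709). Over all autosomal genes, edgeR called 0.118% higher and 0.0524% lower, so a count of 0 in a short list lies near that background. At an unadjusted p under 0.05, 3.71% were higher and 2.99% lower. Of 29 stem cell transcription factors tested 0 were called by edgeR or DESeq2, with a median log2 fold change of 0.04. At that p 1 was higher (3.45%) and 1 lower (3.45%). Of 12 PRC2 subunits 0 were called by edgeR or DESeq2 and 0 had an unadjusted p under 0.05 (median 0.04). Among them the methyltransferases *Ezh1* (0.11, SE 0.12) and *Ezh2* (−0.08, SE 0.08) and the H3K27me3 reader *Eed* (−0.21, SE 0.10) are given by log2 fold change. Of 181 developmental regulators known as PRC2 targets, 25 had enough counts to be tested. Of these 25, 0 were called by edgeR or DESeq2, and 2 were higher (8.0%) and 0 lower at an unadjusted p under 0.05. Their median log2 fold change was 0.54, but 0.33 without WT replicate 1 or with the term for Y-linked transcripts, 0.20 without DM replicate 3, and 0.093 over the members whose counts averaged 50 or more.

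The immunoglobulin genes accounted for 10 of the 18 higher genes with *Jchain* included. *Jchain* joins immunoglobulin monomers into IgA dimers and IgM pentamers and is expressed in plasma cells (chromosome 5 from 88519809 to 88527891). It had 2328, 1750.0, and 1867 normalized counts in WT and 6461, 6721, and 5053 in DM, so that every DM library exceeded every WT library more than 2-fold. *Kdm6b*Δ/+ libraries lay between, with 3829, 3289, and 3182, and *Asxl1*Y588XTg libraries spread widely, with 598, 1653, and 3603. The log2 fold change was 1.63 (SE 0.13, edgeR adjusted p = 0.000336) against WT and 0.83 (SE 0.11, edgeR adjusted p = 0.0158) against *Kdm6b*Δ/+. Against *Asxl1*Y588XTg it was 1.65 (SE 0.71), which the spread of those libraries did not separate from 0 (edgeR adjusted p = 0.385). *Igha*, the constant region of IgA heavy chains (chromosome 12 from 113254830 to 113260236), had 11072, 5666, and 6987 normalized counts in WT and 23412, 30763, and 25373 in DM. All DM libraries were above all WT libraries, and the log2 fold change was 1.76 (SE 0.24, edgeR adjusted p = 0.0492). The κ light chain constant region *Igkc* (chromosome 6 from 70726435 to 70726966) had 8361, 9205, and 9480.4 normalized counts in WT and 15869, 20205, and 19015 in DM. The groups did not overlap, with a log2 fold change of 1.04 (SE 0.10, edgeR adjusted p = 0.00178).

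The called gene segments were *Igkj1* (1.33), *Igkv1-135* (2.03), *Igkv12-46* (1.80), *Igkv1-117* (1.57), *Igkv10-96* (1.23), *Ighv1-64* (1.68), and *Ighv1-81* (2.14), given by log2 fold change. Variable segments resemble each other and short reads may be split among them, so the value of a single segment is uncertain. *Ighv1-64*, for example, had 63.1, 47.0, and 55.6 normalized counts in WT and 143, 224, and 162 in DM, and only in DM did every library exceed 122 normalized counts. *Igkv1-135* had 71.4, 55.7, and 49.2 normalized counts in WT and 181, 309, and 227 in DM and was the segment for which DM also passed the threshold against *Asxl1*Y588XTg (log2 fold change 1.87, SE 0.27, edgeR adjusted p = 0.0161). Over the whole family of 393 annotated immunoglobulin genes and segments, the summed normalized count ranged from 31411 to 36965 in WT, from 54035 to 69187 in DM, from 44409 to 69924 in *Kdm6b*Δ/+, and from 28447 to 66119 in *Asxl1*Y588XTg. DM lay wholly above WT but within the range of the others. Of the 393, 167 passed the filter on low counts and 9 of these were called higher and 0 lower by edgeR, where 0.118% and 0.0524% of all autosomal genes were. At an unadjusted p under 0.05, 66 were higher (39.5%, against 3.71% of all autosomal genes) and 3 lower (1.8%, against 2.99%). DESeq2 called 29 of the 167 higher and 0 lower, and 67 and 35 of all 15254 autosomal genes. Of 20 B cell and plasma cell markers, the 2 called were *Jchain* and *Igkc*, and the median log2 fold change was 0.05, with either sign over the leave-outs (−0.24 to 0.33). *Ighm*, the IgM constant region, had 4709.9, 13216, and 11533 normalized counts in WT and 3702, 3329.7, and 6346 in DM (log2 fold change −1.12, SE 0.44, edgeR adjusted p = 0.722), with overlapping groups. *Sdc1*, the plasma cell surface proteoglycan CD138, had a log2 fold change of 0.44 (SE 0.25), and *Xbp1*, the plasma cell secretory regulator, of −0.21 (SE 0.10), neither past the threshold. *Jchain* and *Igkc* stayed called with each library left out. *Igha* lost its call in all leave-outs but that of WT replicate 1 and *Igkv10-96* in all but that of DM replicate 2, with edgeR adjusted p-values from 0.000208 to 0.183 and from 0.0442 to 0.208, and the other 6 segments lost theirs without WT replicate 3 (edgeR adjusted p from 0.106 to 0.233). The call was also lost for *Igkj1* without DM replicate 1 or 2, for *Ighv1-64* without DM replicate 2 or 3, for *Igkv12-46* without any 1 DM library, for *Igkv1-117* without DM replicate 2 or 3 or WT replicate 2, and for *Ighv1-81* without DM replicate 1 or 2 or WT replicate 1. Over all leave-outs the edgeR adjusted p of these 6 segments ranged from 0.00584 to 0.233. *Igkc* and *Igkj1* lie within the annotated *Gm30211*.

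Globin genes were lower in DM. The α-globin gene *Hba-a2* (chromosome 11 from 32296489 to 32297298) and the β-globin gene *Hbb-bt* (chromosome 7 from 103812524 to 103813996) encode the chains of adult hemoglobin and are transcribed most in erythroid precursors. Their promoters, from 250 bases before to 50 bases after the RefSeq start (assembly GRCm38.p6), are shown because 2 globin genes on different chromosomes moved together. Capitals mark CACCC, the letters recognized by erythroid Krüppel-like factors, and CCAAT, each on either strand (GGGTG and ATTGG on the strand printed), and no 2 of the marked words overlap. Hba-a2 is from chr11:32296242-32296541, plus strand, and Hbb-bt from chr7:103813874-103814173, minus strand.
Hba-a2: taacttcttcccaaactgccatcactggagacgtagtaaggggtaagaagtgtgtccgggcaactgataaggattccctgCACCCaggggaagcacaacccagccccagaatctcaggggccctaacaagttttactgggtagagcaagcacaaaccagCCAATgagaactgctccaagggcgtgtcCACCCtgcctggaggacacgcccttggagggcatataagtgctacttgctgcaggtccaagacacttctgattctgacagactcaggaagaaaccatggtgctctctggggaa
Hbb-bt: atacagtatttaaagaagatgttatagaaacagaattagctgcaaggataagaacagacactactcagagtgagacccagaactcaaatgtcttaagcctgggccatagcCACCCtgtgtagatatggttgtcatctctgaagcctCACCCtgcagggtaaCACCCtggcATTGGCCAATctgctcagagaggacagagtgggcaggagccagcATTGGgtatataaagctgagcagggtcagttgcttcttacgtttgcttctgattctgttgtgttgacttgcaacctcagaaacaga
*Hba-a2* holds 2 matches of CACCC and 1 of CCAAT, and *Hbb-bt* holds 3 of each. These short words are common: of 32851 mouse promoter windows of this length, 57.5% hold CACCC and 37.4% hold CCAAT.

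*Hba-a2* had 326, 321, and 310.2 normalized counts in WT and 73.0, 79.0, and 53.6 in DM. Each DM library was at 79.0 or below, and the WT libraries were nearly equal. *Kdm6b*Δ/+ libraries had 84.2, 146, and 121, and *Asxl1*Y588XTg libraries had 202, 138, and 519. Its log2 fold change was −2.20 (SE 0.18, edgeR adjusted p = 0.000336), called with each library left out. *Hbb-bt* had 989.9, 919.8, and 1085 normalized counts in WT and 395, 551, and 433 in DM, without overlap, and a log2 fold change of −1.11 (SE 0.13, edgeR adjusted p = 0.00763), lost without DM replicate 3 or WT replicate 3 (edgeR adjusted p from 0.00526 to 0.1). The partner genes *Hbb-bs*, with 3549, 3785, and 3994 normalized counts in WT and 1027, 2159.8, and 1696 in DM, and *Hba-a1*, with 576, 665, and 797 normalized counts in WT and 258, 526, and 409.5 in DM, were lower in every DM library than in every WT library but did not pass the threshold (log2 fold changes −1.20 and −0.77, edgeR adjusted p = 0.241 and 0.524). *Hbb-bs* passed it without DM replicate 1 or 2 (edgeR adjusted p = 0.0137 and 0.0298). *Hba-a1* and *Hba-a2* are nearly identical copies, so reads can be split between them. Within the other genotypes the libraries with Y-linked transcripts were the lower ones for these genes. For *Hbb-bt* they had 423 and 459 in *Kdm6b*Δ/+ and 469 in *Asxl1*Y588XTg, against 987 and 774 to 1379.6 in the libraries without them. In the fit of 12 libraries the term for Y-linked transcripts was −0.95 (SE 0.34) for *Hba-a2* and −1.18 (SE 0.19) for *Hbb-bt*, and the DM against WT value beside it was −1.26 (SE 0.46) and 0.06 (SE 0.26). The direction of *Hbb-bt* thus turned, as it did for *Hbb-bs* and *Hba-a1*, for which that value was 0.09 and 0.46. Of 26 erythroid markers tested, the 2 called were these globins, both lower, where 0.0524% of all autosomal genes were. At an unadjusted p under 0.05, 5 of the 26 were lower (19.2%, against 2.99% of all autosomal genes) and 0 were higher. The median log2 fold change of the 26 was −0.12. The direction of that median turned without WT replicate 1 (0.059), without WT replicate 3 or DM replicate 3, and with the term for Y-linked transcripts (0.074), and the leave-outs ranged from −0.45 to 0.059. The summed erythroid markers overlapped, at 31135 to 64670 in WT and 37220 to 57450 in DM.

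The other called genes described here are 1 of the megakaryocyte line and the myosin light chain gene *Myl10*. *Ppbp*, which encodes the platelet chemokine precursor of CXCL7 (chromosome 5 from 90768518 to 90770063), had 32.0, 16.4, and 34.2 normalized counts in WT and 186, 92.0, and 185 in DM. All DM libraries were above all WT libraries, with a log2 fold change of 2.49 (SE 0.36, edgeR adjusted p = 0.0241). *Asxl1*Y588XTg libraries had 33.2, 129, and 33.4, so that a single library reached the DM range. *Kdm6b*Δ/+ libraries stayed below that range, with 28.9, 83.3, and 51.9. *Ppbp* lost its call without DM replicate 1 or 3 or WT replicate 1 or 3 (edgeR adjusted p from 0.0149 to 0.141 over the leave-outs). *Ppbp* was the 1 gene called of 18 megakaryocyte and platelet markers, where 0.118% of all autosomal genes were called higher. The list had a median log2 fold change of 0.41, every member had a fitted value above 0, and 6 of the 18 (33.3%) had an unadjusted p under 0.05 in that direction, against 3.71% of all autosomal genes. With the term for Y-linked transcripts that median was 0.16. The platelet receptor *Gp1ba* had 78.7, 87.4, and 77.0 normalized counts in WT and 162, 127, and 136 in DM (log2 fold change 0.82, SE 0.20, edgeR adjusted p = 0.287). *Vwf*, the platelet adhesion protein, had 1002, 492, and 949 normalized counts in WT and 1880.3, 1114, and 1731 in DM (log2 fold change 0.96, SE 0.31, edgeR adjusted p = 0.611), and *Asxl1*Y588XTg libraries were higher still at 3138, 5848, and 2174. The summed markers ranged from 14723 to 15654 in WT, 17419 to 20044 in DM, and 19942 to 33060 in *Asxl1*Y588XTg. *Myl10*, a myosin light chain (chromosome 5 from 136693146 to 136701094), had 151, 256, and 96.3 normalized counts in WT and 33.9, 31.0, and 36.1 in DM and a log2 fold change of −2.30 (SE 0.35, edgeR adjusted p = 0.0287). Its WT libraries differed by more than 2-fold. Its call was lost without WT replicate 1 or any 1 DM library (edgeR adjusted p from 0.0226 to 0.159 over the leave-outs). The term for Y-linked transcripts was −1.42 (SE 0.58). *Kdm6b*Δ/+ libraries also lay below WT for *Myl10*, with 27.65, 57.5, and 46.7, and *Asxl1*Y588XTg libraries had 366, 53.3, and 106. Between DM and *Kdm6b*Δ/+ the log2 fold change was −0.39 (SE 0.31).

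The lists below held 0 genes called by edgeR apart from *Xaf1* but differed in their medians. DESeq2 called *Col16a1* among the basement membrane genes and *Ifi27l2a*, *Oas1a*, *Rsad2*, *Usp18*, and *Xaf1* among the interferon-stimulated genes. Of all 15254 autosomal genes it called 67 higher and 35 lower. The background over all autosomal genes was a median of 0.00, with 3.71% higher and 2.99% lower at an unadjusted p under 0.05. Stem cell surface proteins and other stem cell enriched genes, 1 list, had 28 of 37 fitted values above 0, and the lowest log2 fold change was −0.86. The summed normalized counts of the list overlapped, at 26836 to 28269 in WT and 25117 to 30128 in DM. Its median log2 fold change was 0.38, with 8 of 37 higher (21.6%) and 1 lower at that p. That median was 0.29 without WT replicate 1 and as low as 0.23 over the leave-outs (without DM replicate 3). Examples of the higher members were the cell cycle inhibitor *Cdkn1c*, with 11.9, 9.83, and 13.9 normalized counts in WT and 41.3, 27, and 39.2 in DM (log2 fold change 1.60, SE 0.42), and *Slamf1*, the stem cell marker CD150, with 24.7, 22.9, and 34.2 normalized counts in WT and 58.3, 47.0, and 64.0 in DM (log2 fold change 1.06, SE 0.33), neither past the threshold. Collagens, laminins, and other basement membrane genes had a median of 0.78, with 8 of 22 (36.4%) higher and 0 lower, and endothelial and stromal markers had a median of 0.79, with 8 of 20 (40.0%) higher and 0 lower. The basement membrane median was 0.54 without WT replicate 1 and 0.49 without DM replicate 3, and the endothelial and stromal median was 0.71 and 0.53 without the same libraries. The summed endothelial and stromal markers were 2398 to 2746 in WT, and 3251, 2963, and 4911 in DM replicates 1, 2, and 3. DM replicate 3 was thus the highest. *Cxcl12*, the chemokine of marrow stroma that retains stem cells, had 72.3, 145, and 409 normalized counts in WT and 500.2, 414, and 1668 in DM (log2 fold change 2.07, SE 0.81, edgeR adjusted p = 0.722). *Cdh5*, the endothelial cadherin, had 6.40, 4.37, and 5.35 normalized counts in WT and 24.3, 23, and 28.9 in DM (log2 fold change 2.22, SE 0.51, edgeR adjusted p = 0.248). The part of such cells in the basement membrane values was not tested.

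**Figure D5:**
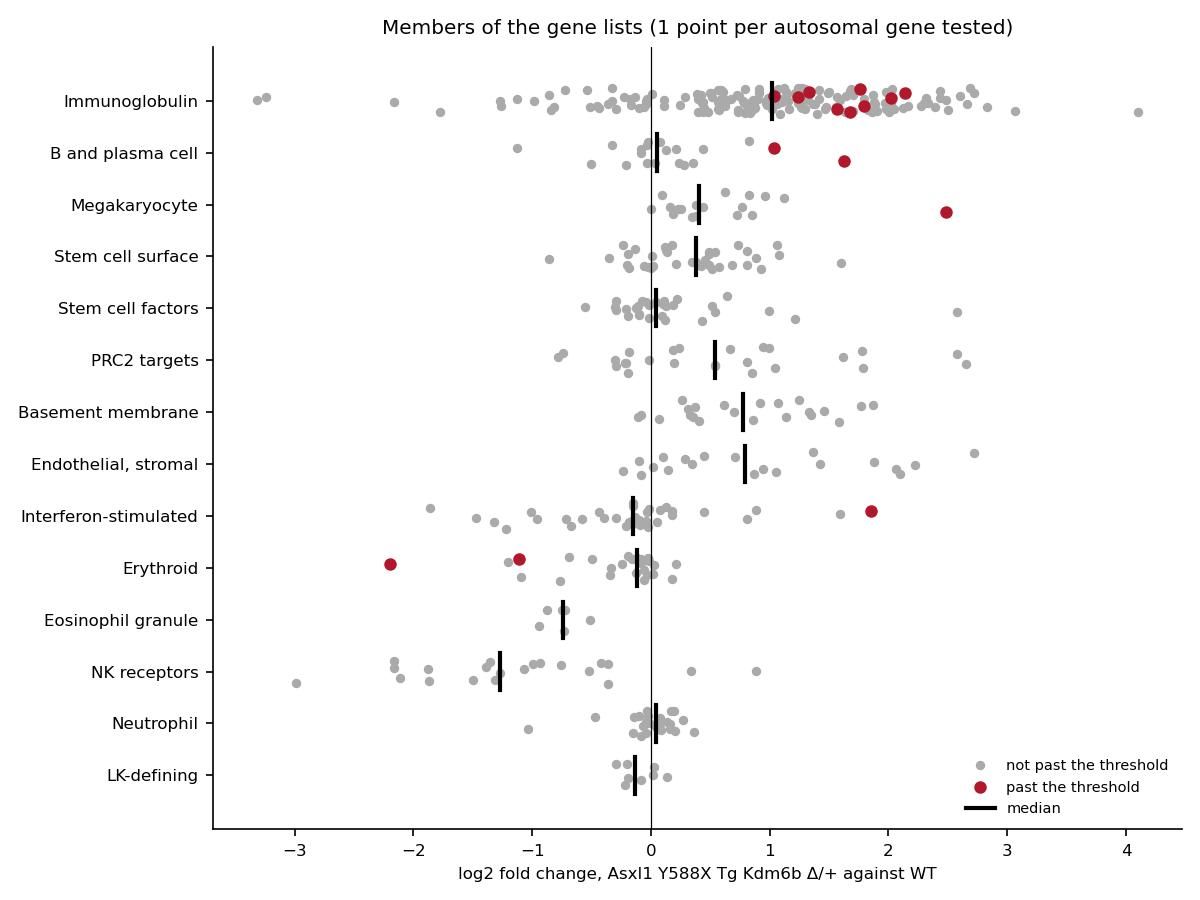
Log2 fold change in *Asxl1*Y588XTg *Kdm6b*Δ/+ against WT (horizontal axis) of the members of 14 gene lists, 1 point per autosomal gene tested; red points were called and black bars are medians. Immunoglobulin genes, with a median of 1.02, hold 9 called genes, the erythroid list holds 2 called lower, and the eosinophil (−0.74) and NK receptor (−1.27) medians lie lowest; the immunoglobulin, eosinophil, and NK receptor lists were chosen after the data were seen.

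On the lower side, 37 interferon-stimulated genes had a median of −0.15, with 7 lower (18.9%) and 2 higher at an unadjusted p under 0.05. With the term for Y-linked transcripts that median was 0.10, so its direction turned. *Usp18*, a negative regulator of the interferon receptor, had 74.1, 71.0, and 64.2 normalized counts in WT and 19.2, 34.0, and 21.7 in DM (log2 fold change −1.48, SE 0.33, edgeR adjusted p = 0.236), and *Rsad2*, an antiviral enzyme, had 208, 253, and 220.4 normalized counts in WT and 86.3, 130.0, and 119.7 in DM (log2 fold change −1.01, SE 0.20, edgeR adjusted p = 0.131). Both were lower in every DM library than in every WT library, and *Xaf1* alone moved past the threshold in the other direction. Medians were −0.04 for cell cycle genes, −0.10 for NF-κB targets, −0.16 for immediate-early genes, 0.04 for neutrophil markers, and 0.08 for cytokine receptors. In that order, 8 of 35, 8 of 21, 7 of 26, 14 of 26, and 22 of 30 fitted values lay above 0, against 50% of all autosomal genes. Without WT replicate 1 the immediate-early median was −0.04. The NF-κB and neutrophil medians turned without WT replicate 1, to 0.022 and −0.035. Of 35, 21, 26, 26, and 30 genes tested in these 5 lists, 0 were called by edgeR, and at an unadjusted p under 0.05 they held 2, 0, 0, 2, and 0 genes in either direction. DESeq2 called 1 gene in these lists, *Pttg1*.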

How the data were processed

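RNA of Lin-cKit+ bone marrow cells was sequenced from 12 mice, 1 library each. Per the methods and the labels, the authors trimmed reads with Trimmomatic, aligned them to mm10 with STAR, and counted them per gene with HTSeq, and the deposited values are raw counts, not normalized. The annotation and strand setting of the counting are not given in the sources used here, and the labels and the methods name different library kits. Symbols were matched to GENCODE vM21 on mm10 (53292 of 55291) or RefSeq (1066 more). Genes were kept by filterByExpr over the 4 genotypes and scaled by TMM. Each pair of genotypes was fitted alone with edgeR 4.0.16 (glmQLFit with robust = TRUE, glmQLFTest, R 4.3.3) and p-values were adjusted by Benjamini-Hochberg over all 15825 genes. SEs are the log2 fold change divided by the square root of F. Normalized counts are counts divided by the TMM-scaled library size and multiplied by its mean, so levels are not compared between genes. The test was also tried on simulated data with known changes. Those data held no outlying library and no sex-linked difference, so they do not show how the test behaves with the libraries compared here. Alternatives were DESeq2 1.42.0, other scalings, filters and thresholds, a fit of all 12 libraries, a term for Y-linked transcripts, a replicate block, and leaving out each library.

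Named genes are those called with a mean of at least 100 and no overlap (at most 12 per direction, filled to 8 with the genes of smallest p), members of lists that were called or else the 2 largest of mean at least 50, the study's own genes, and 8 genes raised by the transgene. The other genes are those called below that mean, and *Evc*, *Evc2*, *Clec1a*, *Trpc6*, *Pttg1*, *Hbb-bs*, *Hba-a1*, *Ighm*, *Sdc1*, *Xbp1*, and the examples given from lists, chosen after their values were seen, and 1 called gene is not reported here. The members and lists were chosen with earlier results of these data known. Same-numbered WT and DM libraries deviated together with correlations of 0.0563 to 0.078, against −0.135 to 0.0502 for differently numbered ones. The same-numbered values were the highest but small, and the numbers were not taken to pair the mice. Whether they do is not known. Totals of 16310456 to 23482563 reads and 3 mice per genotype set the precision, and p-values measure the spread between these mice.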

Additional observations from a re-analysis of the deposited data

Results flagged for a closer look

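Genes outside the autosomes were not part of the comparison. On the Y chromosome, *Eif2s3y* (log2 fold change 10.33), *Ddx3y* (9.89), *Kdm5d* (9.44), and *Uty* (9.08) were higher in DM than in WT, where they were at or near 0. These 4 values separate the libraries with Y-linked transcripts from those without, and they show that all 3 DM libraries and none of the 3 WT libraries hold such transcripts. On the X chromosome, *Xist* (−9.51), the erythroid gene *Alas2* (−1.49, edgeR adjusted p = 0.0174), and the H3K27me3 demethylase gene *Kdm6a* (−0.72, edgeR adjusted p = 0.00269) were called lower in DM. In the fit of 12 libraries the term for Y-linked transcripts was −1.14 for *Alas2* and −0.75 for *Kdm6a*. On the mitochondrial chromosome, *mt-Rnr1*, the 12S ribosomal RNA, had 3138, 2559.5, and 2952 normalized counts in WT and 4267, 4617, and 5805 in DM. The groups did not overlap, and the log2 fold change was 0.78 (SE 0.12, edgeR adjusted p = 0.0401). The nuclear genes that collect ribosomal RNA reads were also higher in DM, with a median log2 fold change of 1.19. DESeq2 called 4 of 4 higher, where it called 67 of all 15254 autosomal genes higher. At an unadjusted p under 0.05, 4 of 4 were higher, against 3.71% of all autosomal genes. Among them *Lars2* had 5881, 5347, and 6589 in WT and 9768, 11084, and 17670.1 in DM.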

How the results depend on the processing

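Counts of called genes varied with the method. Against 18 higher and 8 lower autosomal genes, DESeq2 gave 67 and 35 on the 6 libraries and 68 and 23 on all 12, edgeR on all 12 gave 9 and 5, no expression filter gave 124 and 45, and the term for Y-linked transcripts gave 3 and 0. All 26 genes were called again by DESeq2 on the 6 libraries, 9 by edgeR on all 12, and 3 with the term for Y-linked transcripts (*Nlrp1b*, *Eif5al3-ps*, and *Gm18860*). Leaving out single libraries gave 5 to 26 higher and 3 to 16 lower genes. With the replicate block, which assumes that equal numbers pair the mice, there were 40 and 17, and 24 of the 26 genes were called again. RLE scaling, library size only, a mean count of at least 50, and no fold threshold stayed within 1.5 times of both counts. The direction turned with the term for Y-linked transcripts for *Hbb-bt* (0.058), *Hba-a1* (0.46), and *Hbb-bs* (0.091), and in no other alternative for any of the 74 genes examined. The median of the 613 genes higher in *Asxl1*Y588XTg than *Kdm6b*Δ/+ kept its sign throughout, from 0.22 (mean count of at least 50) to 0.51 (without DM replicate 2). The causes of these changes were not tested. With 3 mice per genotype, effects on genes of low count carried large errors.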

Other observations

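Genes of 2 mature cell types, on lists chosen after the data were seen, lay lower in DM than in WT, without a gene past the threshold by edgeR with all 6 libraries. Eosinophil granule genes were lower in 6 of 6 members at an unadjusted p under 0.05, against 2.99% of all autosomal genes. Their median log2 fold change was −0.74. DESeq2 called 5 of the 6 lower, where it called 35 of all 15254 autosomal genes lower. Without WT replicate 1 the median was −0.90, and *Epx*, the eosinophil peroxidase (log2 fold change −0.91, edgeR adjusted p = 0.0163), and *Ear6*, an eosinophil ribonuclease (−1.12, edgeR adjusted p = 0.0092), passed the threshold, *Ear6* also without WT replicate 2 (edgeR adjusted p = 0.033). *Prg2*, the major basic protein, had 25964, 44361, and 29854 normalized counts in WT and 17976, 21736, and 19349 in DM. Every DM library lay below every WT library, and *Asxl1*Y588XTg libraries had 11639.9, 15027, and 20233, whereas *Kdm6b*Δ/+ libraries had 31371, 26633, and 23936. The sum over the 6 genes was 42116 to 72680 in WT and 29861 to 35761 in DM.

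Of 21 NK cell receptor genes tested, 11 were lower (52.4%, against 2.99% of all autosomal genes) and 1 higher (4.76%, against 3.71%) at an unadjusted p under 0.05. Their median log2 fold change was −1.27, and DESeq2 called 4 lower and 1 higher, against 35 and 67 of all 15254 autosomal genes. *Klra4*, a receptor of the Ly49 family, passed the threshold of edgeR without WT replicate 1 (log2 fold change −3.27, adjusted p = 0.0349). *Klrk1*, which encodes the activating receptor NKG2D, had 136, 194, and 128 in WT and 76.0, 73.0, and 79.4 in DM. With the term for Y-linked transcripts the median of the 21 genes was 0.00, and the median of that term was −1.06, so the genotype and sex-linked values of this list cannot be told apart in DM against WT.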
